A study of Mus musculus with 3 samples.

Results

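The genes of the constitutive proteasome were followed through knockdown of Med23 in the mouse melanoma line B16F10. Members were the table's genes named Psma, Psmb, Psmc or Psmd with a number, without the interferon-inducible Psmb8, Psmb9 and Psmb10, and 35 of 12852 genes matched. They carried 34 symbols, because Psmd14 stood on 2 gene IDs, and comprised 14 genes of the core particle and 21 of the regulatory particle. The siMed23 group held 2 libraries, titled siMed23A and siMed23B, from cells in which siRNA lowered Med23, and the siCtrl group held 1 library from cells described as wild type. The product of Med23 belongs to Mediator, a coactivator between transcription factors and RNA polymerase II. Expression was given in RPKM, a read count divided by transcript length and by sequencing depth. All cells were grown in the same serum-containing medium, and neither the dose of siRNA nor the time of harvest was given in the sources used here.

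The proteasome is the cell's main protease for proteins tagged with ubiquitin. Its core particle is a barrel of stacked rings, in which outer rings of alpha subunits form a gated entrance and inner rings of beta subunits hold the proteolytic sites. The regulatory particle caps the barrel: its lid removes ubiquitin, and its base binds, unfolds and threads the substrate with a ring of ATPases. In mammalian cells the subunit genes are known to be raised together, through the transcription factor Nfe2l1, when the proteasome is inhibited.

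Med23 stood at 1.65 and 1.61 RPKM after siMed23, the first library's value being given before the second's, against 5.23 RPKM in the siCtrl library. By limma with Benjamini-Hochberg adjustment over all genes tested, its difference in log2(RPKM + 1), the scale of every log2 difference below, was -1.24 (SE 0.11, adjusted p = 0.00121). The pigment cell markers Pmel, Tyrp1, Dct, Mlana, Sox10 and Tyr were present in every library, from 8.71 RPKM for Tyr in the second siMed23 library to 2359 RPKM for Dct in the siCtrl library, and all 6 fell. Of 13 markers of other cell types 4 had values, of which Cd68 was 10.0 and 10.1 RPKM in the siMed23 libraries against 16.9 RPKM in the siCtrl library, and Col1a1 and Pdgfrb were at most 2.29 RPKM in any library. Read depth was unknown. The libraries had nearly the same distribution of values, so a change in total RNA could not be seen, and in such bulk samples fewer cells and less RNA per cell cannot be told apart. Nothing in the labels says whether the siMed23 libraries came from separate cultures or used different siRNAs, so p-values measure only the spread between these libraries, which may be technical. The siCtrl library had no replicate, and every p-value below takes it to vary like the siMed23 libraries. Both siMed23 libraries were set against that same control.

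Differences of the proteasome genes were small and went in both directions. Of the 35 members, all of which passed the filter of a mean of at least 1 RPKM, 7 rose, 10 fell and 18 did not pass the test. Among all 9722 genes tested 50.3% passed, 26.3% higher and 24.0% lower, so the members' share of 48.6% was near the background. The members' median log2 difference was 0.01, beside 0.01 for all genes tested. The median size of the difference, whatever its sign, was 0.23 for members and 0.34 for all genes tested. Among the 5945 other genes averaging at least 5 RPKM, as 34 members did, 56.0% passed, the median size was 0.35 and 22.4% were changed 1.5-fold in both siMed23 libraries. Psma5 was the only member changed at least 1.5-fold in both siMed23 libraries, where 20.4% of all genes tested were. No member was changed 2-fold in both, beside 5.40% of all genes tested, 2.57% higher and 2.83% lower. Both siMed23 libraries lay above the control for 16 members and below it for 15, and the remaining 4 overlapped it. Of all genes tested 46.6% lay above and 44.2% below, 90.8% together.

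**Figure D1:**
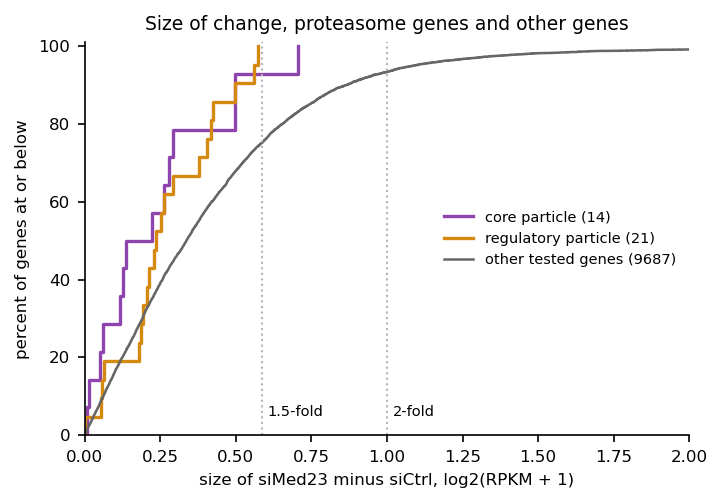
Cumulative share of genes (percent, vertical axis) against the size of the siMed23 minus siCtrl difference (log2(RPKM + 1), horizontal axis) for the 14 core particle genes, the 21 regulatory particle genes and the other 9687 genes tested. The curves of both particles reach the top by 0.71, the value of Psma5, whereas other genes extend beyond the 2-fold line.

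These calls rest on how far the lone siCtrl library varies. If its SD was 2 times that of each siMed23 library, limma called Psma5 and Psma7 higher and Psmd1, Psmd2 and Psmd7 lower, 5 of 35 members, beside 15.4% of all genes. At 3 times, 0 of 35 members passed limma's adjusted threshold, beside 2.01% of all genes. Across the alternatives run, the limma adjusted p of Med23 itself reached 0.108, so the targeted gene did not keep its call in all of them. At an unadjusted p under 0.05 there were 2 members higher and 3 lower, beside 1031 higher and 912 lower of all 9722 genes. Transcript length moved with the differences. Across genes, which are not independent replicates, the log2 difference was lower for longer transcripts (Spearman -0.357), and the members' median length of 1851 bases was shorter than the 3383 bases of all genes tested. After a loess correction for length and GC content the core particle had 4 genes higher and 7 lower, with a median of -0.24. The regulatory particle had 2 higher and 7 lower of 20, with a median of -0.10, the Psmd14 entry without a known length being left out. Among all 9614 genes so corrected 2622 were higher and 2396 lower, with a median of 0.02. The part of length in the uncorrected differences was not tested.

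In the core particle the called rises were alpha subunits and the called falls beta subunits. Its 14 genes split into 4 that rose, 3 that fell and 7 that did not pass (median log2 difference -0.03). The called share, 7 of 14, was near the 50.3% of all genes tested. Whether alpha and beta subunits differed in direction was not tested. Of the 7 alpha subunit genes, Psma2, Psma3, Psma5 and Psma7 rose, and the median was 0.26. Psma5 was 27.6 and 26.4 RPKM in the siMed23 libraries and 16.2 RPKM in the siCtrl library, so both siMed23 values lay above the control. The log2 difference was 0.71 (SE 0.08, limma adjusted p = 0.00237), a 1.67-fold higher mean RPKM. Psma7 reached 73.7 and 77.2 RPKM in the siMed23 libraries, against 53.2 RPKM in the siCtrl library, with a log2 difference of 0.50 (SE 0.07, limma adjusted p = 0.00346). Psma3 was the lowest of the alpha subunits in every library, at 8.32 and 8.08 RPKM in the siMed23 libraries and 5.52 RPKM in the siCtrl library (log2 difference 0.50, SE 0.10, limma adjusted p = 0.0120). Psma2, another alpha ring subunit, was 24.0 and 24.2 RPKM after siMed23 and 19.9 RPKM in the control, with a log2 difference of 0.26. This call was lost without an intensity trend in the variance model.

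The other alpha subunit genes did not pass. Psma1 was 38.9 and 36.6 RPKM in the siMed23 libraries, on either side of the 37.5 RPKM in the siCtrl library, and its difference had a 95% interval from -0.19 to 0.20. Psma6 was 60.7 and 58.4 RPKM after siMed23 and 64.7 RPKM in the control (95% interval -0.28 to 0.05). Psma4 was 15.8 and 14.9 RPKM after siMed23 and 16.8 RPKM in the control (95% interval -0.36 to 0.10). Both genes lay below the control in both siMed23 libraries. Under the length and GC correction, Psma1, Psma4 and Psma6 were called lower, and the 4 alpha subunits that had risen were still called higher. Their differences were then 0.47 for Psma5, under 1.5-fold, 0.26 for Psma7, 0.49 for Psma3 and 0.28 for Psma2.

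Among the beta subunits, Psmb2, Psmb4 and Psmb5 fell and 4 of 7 did not pass, with a median log2 difference of -0.14. In all, 5 lay below the control in both siMed23 libraries. Psmb5 encodes the catalytic subunit with chymotrypsin-like activity, the main target of proteasome inhibitor drugs. It was 23.2 and 23.3 RPKM in the siMed23 libraries and 28.6 RPKM in the siCtrl library, with a log2 difference of -0.29 (SE 0.08, limma adjusted p = 0.0281). The other catalytic genes did not pass: Psmb6, of the caspase-like site, was 39.9 and 39.5 RPKM after siMed23 and 40.1 RPKM in the control (95% interval -0.19 to 0.16). Psmb7, of the trypsin-like site, was 131 and 126 RPKM after siMed23 and 141 RPKM in the control (95% interval -0.28 to 0.00). All 3 catalytic genes therefore lay below the control in both siMed23 libraries, Psmb6 by the least. Under the length and GC correction Psmb6 was called lower (-0.32), and Psmb5 was at -0.63.

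Among the non-catalytic beta subunits, Psmb2 was 26.8 and 28.2 RPKM in the siMed23 libraries and 33.5 RPKM in the siCtrl library (log2 difference -0.28, SE 0.08, limma adjusted p = 0.0342). Psmb4 was 87.9 and 91.2 RPKM in the siMed23 libraries and 105 RPKM in the siCtrl library (log2 difference -0.22, SE 0.06, limma adjusted p = 0.0290). Under the length and GC correction they were at -0.60 and -0.48. The calls of Psmb2, Psmb4 and Psmb5 were lost without an intensity trend in the variance model. There limma called 0 core genes lower, beside 2219 of all genes, and 2 at an unadjusted p under 0.05, beside 2644. Psmb1 was the most abundant core gene by RPKM in every library, at 152 and 147 RPKM after siMed23 and 143 RPKM in the control. Psmb3 was 20.0 and 17.7 RPKM after siMed23, on either side of the control's 19.5 RPKM. RefSeq names 6 pseudogenes after 4 members, Psma5, Psmb5, Psmb6 and Psmb7, so their values are uncertain where reads were shared with these copies.

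**Figure D2:**
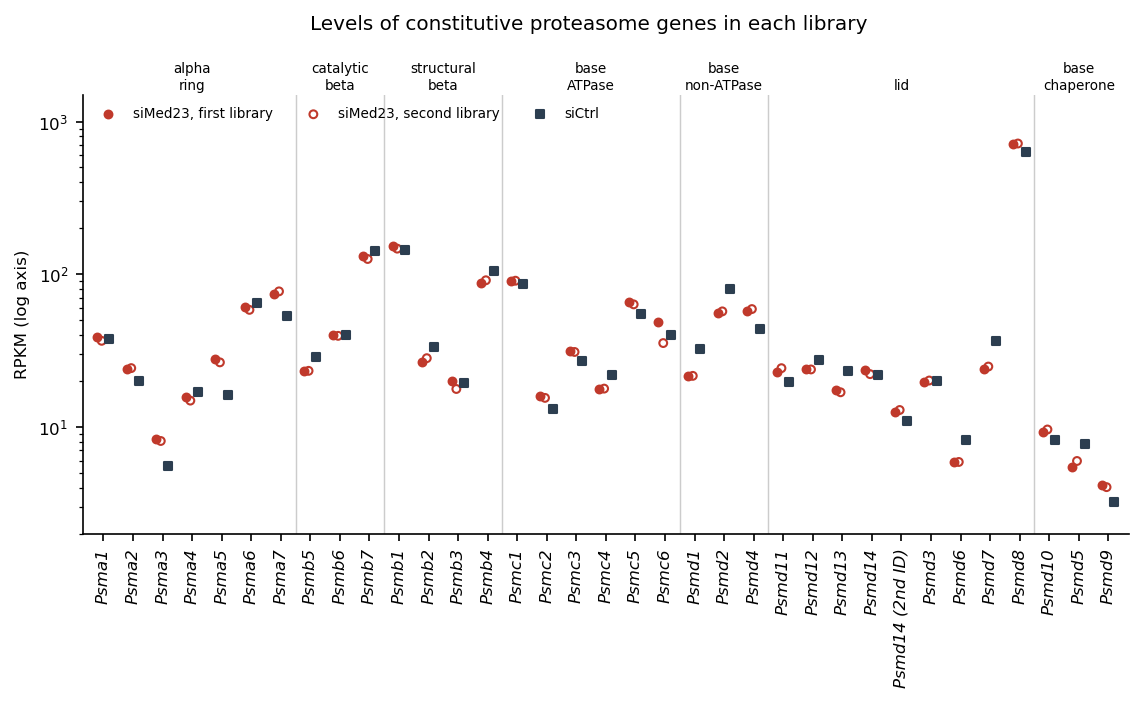
RPKM on a log axis for each of the 35 proteasome genes (horizontal axis, grouped by role) in the first and the second siMed23 library (red) and the siCtrl library (dark squares), 1 point per library. Psmd8 stands at 718 RPKM in both siMed23 libraries and 628 RPKM in the siCtrl library, above all other members, and the 3 base chaperones lie under 10 RPKM.

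The regulatory particle had 3 genes that rose, 7 that fell and 11 that did not pass (median log2 difference 0.06). Its called share of 47.6% was near the 50.3% of all genes tested. Both siMed23 libraries lay above the control for 11 of its 21 entries and below it for 8, so falls did not prevail by position. Of the 6 ATPases of the base, which form the unfolding ring, 1 rose, 1 fell and 4 did not pass. Psmc5 was 66.1 and 63.4 RPKM after siMed23 and 55.1 RPKM in the control and was called higher (log2 difference 0.23), but this call was lost under median-of-ratios scaling, under the length and GC correction and without an intensity trend. Psmc4 was 17.7 and 17.8 RPKM in the siMed23 libraries, against 21.9 RPKM in the siCtrl library, with a log2 difference of -0.29 (SE 0.08, limma adjusted p = 0.0332), a call lost without an intensity trend. Psmc1, Psmc2 and Psmc3 lay above the control in both siMed23 libraries without passing, with log2 differences of 0.06, 0.24 and 0.21, and Psmc2 was called higher under the length and GC correction (0.30). Psmc6 was 48.6 and 35.4 RPKM after siMed23 and 39.8 RPKM in the control, so its groups overlapped and its 95% interval ran from -0.40 to 0.51.

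The scaffold and ubiquitin receptor subunits of the base moved apart. Psmd1 and Psmd2 are large solenoid proteins of the base, of which Psmd2, as its yeast counterpart, also docks the shuttle factors that deliver ubiquitinated proteins. Psmd1 was 21.5 and 21.6 RPKM in the siMed23 libraries and 32.5 RPKM in the siCtrl library, with a log2 difference of -0.57 (SE 0.08, limma adjusted p = 0.00359), the largest fall of any member before correction. After the length and GC correction it was -0.58, and Psmd7 (-0.74), Psmd6 (-0.63), Psmb5 (-0.63) and Psmb2 (-0.60) fell further. Psmd2 was 56.0 and 57.1 RPKM in the siMed23 libraries and 80.1 RPKM in the siCtrl library, a log2 difference of -0.50 (SE 0.06, limma adjusted p = 0.00304). Psmd4, a receptor that binds ubiquitin chains, moved the other way, at 57.7 and 59.1 RPKM in the siMed23 libraries and 43.8 RPKM in the siCtrl library (log2 difference 0.41, SE 0.07, limma adjusted p = 0.00621). Psmd2 was thus just below Psmd4 in both siMed23 libraries and above it in the control. Adrm1, the other ubiquitin receptor of the base, lies outside the naming rule and also rose, to 3.31 and 3.30 RPKM in the siMed23 libraries, against 2.11 RPKM in the siCtrl library (log2 difference 0.47).

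In the lid, Psmd7, Psmd13 and Psmd6 fell, Psmd8 rose, and 5 of 9 entries did not pass. Psmd7 forms a dimer with Psmd14, the metalloprotease that cuts ubiquitin from substrates. It was 24.1 and 24.8 RPKM in the siMed23 libraries and 36.5 RPKM in the siCtrl library, with a log2 difference of -0.56 (SE 0.08, limma adjusted p = 0.00383). Psmd14 itself, under its 2 gene IDs, was 23.5 and 22.1 RPKM after siMed23 and 21.9 RPKM in the control for ENSMUSG00000026914, and 12.5 and 12.9 RPKM after siMed23 and 10.9 RPKM in the control for ENSMUSG00000090649. Neither entry passed (95% intervals -0.16 to 0.27 and -0.03 to 0.44), and reads may have been divided between them.

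Psmd13 was 17.5 and 16.8 RPKM in the siMed23 libraries and 23.3 RPKM in the siCtrl library, and Psmd6 was 5.86 and 5.89 RPKM after siMed23 and 8.21 RPKM in the control, with log2 differences of -0.42 for each. Psmd8 had identical siMed23 values of 718 RPKM, against 628 RPKM in the siCtrl library (log2 difference 0.19). It took the same rank in both siMed23 libraries, whose distributions were nearly equal, so its spread is understated, and the call was lost without an intensity trend and under the length and GC correction. Psmd11, which in yeast clamps the lid to the core, was 22.9 and 24.2 RPKM after siMed23 and 19.6 RPKM in the control (log2 difference 0.25, SE 0.08, limma adjusted p = 0.0550), and passed with robust variance estimation (adjusted p = 0.0478). Psmd12 was 24.0 and 23.8 RPKM after siMed23 and 27.3 RPKM in the control and did not pass, but was called lower under the length and GC correction (-0.31). Psmd3, a lid scaffold subunit, was 19.6 and 20.1 RPKM after siMed23 and 19.9 RPKM in the control, with a 95% interval from -0.21 to 0.21.

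Psmd5, Psmd9 and Psmd10 are chaperones that help build the base and leave the finished particle. With Psmd6 and Psma3 they were the lowest members by RPKM. Psmd5 was 5.48 and 5.97 RPKM in the siMed23 libraries and 7.73 RPKM in the siCtrl library (log2 difference -0.38), a call lost without a filter and under the length and GC correction. Psmd9 was 4.13 and 4.03 RPKM after siMed23 and 3.23 RPKM in the control (log2 difference 0.26, SE 0.11, limma adjusted p = 0.0958). Psmd10 was 9.25 and 9.61 RPKM after siMed23 and 8.20 RPKM in the control. Both lay above the control in each siMed23 library, whereas Psmd5 lay below it.

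**Figure D3:**
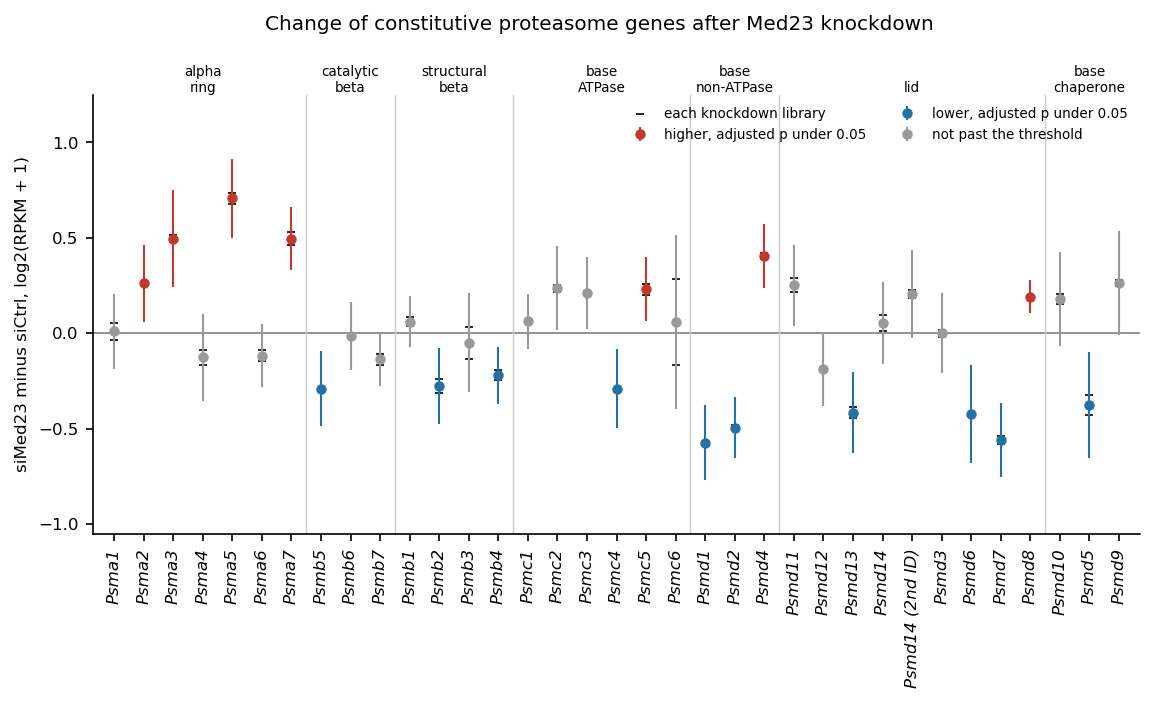
Difference of siMed23 minus siCtrl on the log2(RPKM + 1) scale (vertical axis) for each of the 35 genes, with limma's 95% interval and a dash for each siMed23 library. Red genes were called higher (7), blue genes lower (10) and grey genes did not pass (18). The blue genes include beta, ATPase, scaffold, lid and base chaperone genes but no alpha subunit. Under the length and GC correction, not drawn here, Psma1, Psma4 and Psma6 were called lower.

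Because RPKM is scaled to length, levels can also be set beside each other. That holds only where reads were assigned to the right gene, which was not checked, and Psmd8 stood far above every other member. In the core particle the highest gene stood 18.3 and 18.2 times above the lowest in the siMed23 libraries and 26.0 times in the siCtrl library. The SD of core levels on the log2(RPKM + 1) scale was 1.16 and 1.18 in the siMed23 libraries and 1.27 in the siCtrl library. The SD of the regulatory particle went the other way, at 1.56 and 1.54 in the siMed23 libraries and 1.51 in the siCtrl library. Without Psmd8 it was 1.14 and 1.11 in the siMed23 libraries, on either side of the 1.13 in the siCtrl library. With Psmd8, the highest regulatory gene stood 174 and 178 times above the lowest after siMed23 and 194 times in the control, lower after siMed23 as in the core. Such a ratio rests only on the highest and the lowest gene. The lowest were Psma3 in the core and Psmd9, which did not pass, in the regulatory particle. Other genes were not compared in this way. Summed RPKM over the 7 alpha genes was 249 and 246 in the siMed23 libraries, against 214 in the siCtrl library. Over the 7 beta genes it was 481 and 473 in the siMed23 libraries, against 511 in the siCtrl library. The core particle as a whole summed to 730 and 718 RPKM after siMed23 and 725 RPKM in the control, on either side of it. The regulatory particle summed to 1291 and 1279 RPKM after siMed23 and 1215 RPKM in the control, above it. Without Psmd8, which alone held more RPKM than the other 20 genes together, the sums were 574 and 562 RPKM after siMed23 and 586 RPKM in the control, below it, so that 1 gene set the direction.

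Upstream sequences are shown for the members with the largest rise and fall, Psma5 and Psmd1, and for the base subunits that moved apart, Psmd4 and Psmd2. They are the 250 bases before the RefSeq start on build GRCm38.p6, which is not the mm9 build that the submitters' notes name. Psma5 lies at chr3:108256676-108256925 on the plus strand, Psmd4 at chr3:95042615-95042864 on the minus strand, Psmd1 at chr1:86064369-86064618 on the plus strand and Psmd2 at chr16:20651402-20651651 on the plus strand. Capitals mark matches, on either strand, to any of 6 motifs that were chosen with the results known: TGACNNNGC (the antioxidant response element bound by Nfe2l1 and Nfe2l2), CCGGAAG (ETS factors), CCAAT (the CCAAT box), GGGCGG (the GC box), CACGTG (the E-box, which Mitf can bind) and TATAAA (the TATA box). None of these motifs contains another.
Psma5: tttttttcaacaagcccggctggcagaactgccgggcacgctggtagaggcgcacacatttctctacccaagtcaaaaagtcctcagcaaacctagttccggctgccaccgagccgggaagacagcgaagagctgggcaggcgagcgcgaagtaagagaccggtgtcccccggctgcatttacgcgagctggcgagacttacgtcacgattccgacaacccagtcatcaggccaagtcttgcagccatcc
Psmd4: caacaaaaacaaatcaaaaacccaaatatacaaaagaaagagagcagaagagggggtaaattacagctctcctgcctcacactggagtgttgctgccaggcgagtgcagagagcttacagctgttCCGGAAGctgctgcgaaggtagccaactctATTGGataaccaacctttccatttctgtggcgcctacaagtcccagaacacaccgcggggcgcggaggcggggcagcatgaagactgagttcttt
Psmd1: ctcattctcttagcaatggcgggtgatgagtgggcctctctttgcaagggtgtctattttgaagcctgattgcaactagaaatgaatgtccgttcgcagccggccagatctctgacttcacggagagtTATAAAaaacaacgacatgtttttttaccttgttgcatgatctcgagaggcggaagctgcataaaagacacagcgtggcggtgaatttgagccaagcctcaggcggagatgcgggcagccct
Psmd2: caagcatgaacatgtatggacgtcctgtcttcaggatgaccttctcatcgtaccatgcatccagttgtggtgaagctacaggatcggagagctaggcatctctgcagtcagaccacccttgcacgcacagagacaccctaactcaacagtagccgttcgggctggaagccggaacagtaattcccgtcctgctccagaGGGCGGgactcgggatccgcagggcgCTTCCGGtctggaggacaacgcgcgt
Psma5 held none of the 6 motifs in this window. Psmd4 held an ETS match and, on the opposite strand, a CCAAT match. Psmd1 held a TATA match, and Psmd2 a GC box and, on the opposite strand, an ETS match. An ETS match was thus present in a gene that rose and in a gene that fell.

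RefSeq promoters were found for 28 of the 34 member symbols, all but Psmb1, Psmb2, Psmb7, Psmc3, Psmd3 and Psmd7, giving 30 windows. They were set beside 32851 windows of the same length, from all promoters of the set whether or not their gene was tested here. That background was not matched for expression, so an excess in member windows need not be particular to them. ETS matches were in 33.3% of member windows and 6.91% of all windows, and GC boxes in 56.7% of member windows and 32.7% of all. CCAAT was in 36.7% of member windows and 33.8% of all, the E-box in 6.67% of member windows and 6.02% of all, and TATAAA in 10.0% of member windows and 12.4% of all. Of the 11 genes with CCAAT 4 rose, 0 fell and 7 did not pass, and of the 17 with a GC box 4 rose, 4 fell and 9 did not pass. Of the 9 with an ETS match 1 rose, 2 fell and 6 did not pass, neither of the 2 with an E-box passed, and the 3 with TATAAA, Psmb4, Psmd1 and Psmd6, fell. These small counts stand beside 26.3% higher and 24.0% lower among all genes tested, and no test was made of them. These are letter matches and say nothing on whether a factor was bound. The antioxidant response element was in 16.7% of member windows and 10.2% of all windows, in the 5 genes below, shown with the match in capitals because Nfe2l1 is a known activator of this family.
Psmb5, chr14:54618019-54618057, minus strand: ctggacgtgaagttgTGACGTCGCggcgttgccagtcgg
Psmb6, chr11:70525333-70525356, plus strand: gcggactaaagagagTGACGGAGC
Psmc6, chr14:45329582-45329620, plus strand: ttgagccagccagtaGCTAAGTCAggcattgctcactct
Psmd12, chr11:107479278-107479304, plus strand: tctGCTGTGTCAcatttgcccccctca
Psmd9, chr5:123228144-123228182, plus strand: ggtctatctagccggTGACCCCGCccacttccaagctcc
In Psmc6 and Psmd12 the match reads on the opposite strand. Of these 5 genes Psmb5 fell and the other 4 did not pass.

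Genes that work with the proteasome came from a list of which 39 had values. Of these 14 rose, 8 fell and 17 did not pass, 56.4% called beside 50.3% of all genes tested, and their median log2 difference was 0.13. Without Psmb8 and Psmb9, which entered only through the libraries where they are high, 12 of 37 rose and 8 fell. Nfe2l1 was 125 and 138 RPKM in the siMed23 libraries and 140 RPKM in the siCtrl library (95% interval -0.28 to 0.09) and did not pass. Nfe2l2, the related oxidative stress factor, fell to 18.1 and 17.2 RPKM in the siMed23 libraries, against 26.2 RPKM in the siCtrl library (log2 difference -0.55, SE 0.09, limma adjusted p = 0.00532). Ddi2 and Ngly1, which process Nfe2l1, and Akirin2, a nuclear import factor for proteasomes in human cells, lay below the control in both siMed23 libraries without passing. Akirin2 was called lower under the length and GC correction (-0.33).

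The inducible catalytic genes were higher in both siMed23 libraries. Psmb8, the interferon-inducible counterpart of Psmb5, was 6.58 and 7.13 RPKM in the siMed23 libraries and 0.0291 RPKM in the siCtrl library, so that it and Psmb9 passed the filter only through the siMed23 libraries, and their calls are no support. It took 22.1% and 23.4% of the RPKM of that pair after siMed23 against 0.102% in the control. Psmb9 took 8.72% and 9.53% of its pair with Psmb6 after siMed23 against 0.360% in the control, and Psmb10 took 4.57% and 4.84% of its pair with Psmb7 after siMed23 against 1.45% in the control. The constitutive gene therefore kept most of the RPKM of each pair in every library.

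**Figure D4:**
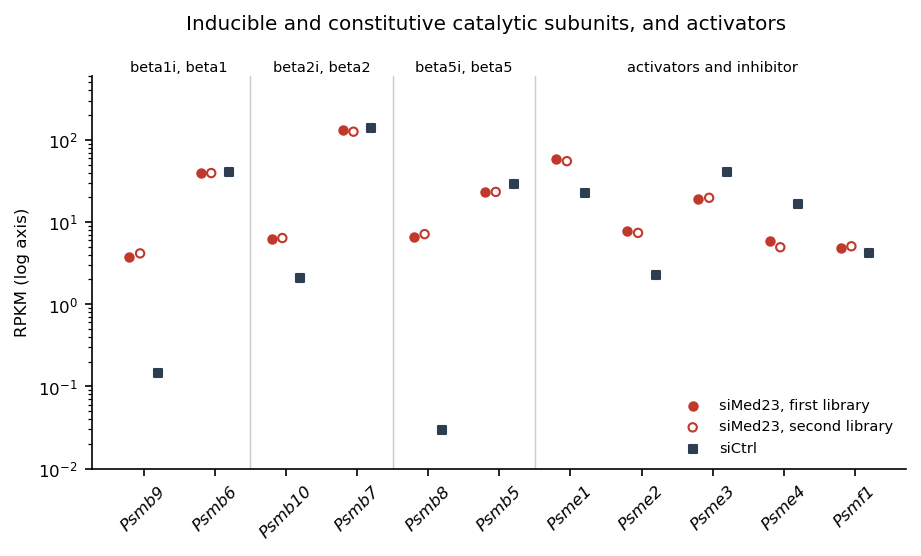
RPKM on a log axis for the inducible and constitutive catalytic genes, side by side for each site, and for activators and the inhibitor Psmf1, in the siMed23 libraries (red) and the siCtrl library (dark squares). Psmb8 lies at 6.58 and 7.13 RPKM after siMed23 and 0.0291 RPKM in the control, whereas Psmb5 lies at 23.2 and 23.3 RPKM after siMed23 and 28.6 RPKM in the control.

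Psme1 and Psme2 encode the interferon-inducible activator that can replace the regulatory particle. Psme1 rose to 58.7 and 55.1 RPKM in the siMed23 libraries, against 22.4 RPKM in the siCtrl library (log2 difference 1.31, SE 0.08, limma adjusted p = 0.000392). Psme2 rose to 7.68 and 7.38 RPKM in the siMed23 libraries, against 2.28 RPKM in the control, and the related pseudogene Psme2b-ps rose as well (limma adjusted p = 0.000356), so reads may have been shared. Psme3 and Psme4, which encode activators found in the nucleus, fell. Psme3 was 18.9 and 19.7 RPKM in the siMed23 libraries and 40.3 RPKM in the siCtrl library (log2 difference -1.02, SE 0.08, limma adjusted p = 0.000852). Psme4 was 5.88 and 4.94 RPKM in the siMed23 libraries and 16.7 RPKM in the siCtrl library (log2 difference -1.47, SE 0.13, limma adjusted p = 0.00106). Psmf1, an inhibitor of the core, was 4.86 and 5.07 RPKM after siMed23 and 4.21 RPKM in the control and did not pass. If the siCtrl library varied 3 times as much, limma called only Psme1 and Ubb of the 37 genes without Psmb8 and Psmb9.

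Among assembly factors, Psmg4 rose to 19.2 RPKM in each siMed23 library, against 8.50 RPKM in the siCtrl library (log2 difference 1.09, SE 0.09, limma adjusted p = 0.000868). Its partner Psmg3 rose to 8.54 and 10.6 RPKM in the siMed23 libraries, against 5.73 RPKM in the control, while Psmg1, Psmg2 and Pomp, which also help assemble the core, did not pass. Pomp was 94.7 and 95.8 RPKM after siMed23 and 99.2 RPKM in the control. Shfm1, a small lid subunit, rose to 1106 and 1047 RPKM in the siMed23 libraries, against 831 RPKM in the siCtrl library (log2 difference 0.37). Ube3c, a ligase that extends ubiquitin chains on proteasome-bound substrates, fell to 7.52 and 7.99 RPKM in the siMed23 libraries, against 20.4 RPKM in the siCtrl library (log2 difference -1.29, SE 0.10, limma adjusted p = 0.000746). The proteasomal deubiquitinases Usp14 and Uchl5 did not pass, nor did Txnl1 and AI314180. Under the length and GC correction Usp14 (0.44), Txnl1 (0.39) and AI314180 (0.31) were called higher and Psmg1 (-0.54) lower, and the difference of Psmg4 was 0.66.

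Shuttle factors, the Vcp segregase and ubiquitin genes were mixed. The shuttle factor Rad23b was 59.3 and 60.1 RPKM after siMed23 and 56.5 RPKM in the control and did not pass. Ubqln4, another shuttle factor, rose with a log2 difference of 0.28, a call lost without an intensity trend and under the length and GC correction. Ubqln1 and Ubqln2 did not pass, and Ubqln2 was called lower without an intensity trend. Vcp, which extracts ubiquitinated proteins from complexes and membranes, and its cofactor Nploc4 fell, with log2 differences of -0.47 and -0.67, and the cofactor Ufd1l did not pass. Ubb, a gene for ubiquitin, was 530.0 and 526 RPKM in the siMed23 libraries and 328 RPKM in the siCtrl library (log2 difference 0.68, SE 0.04, limma adjusted p = 0.000327). Rps27a, which encodes ubiquitin fused to a ribosomal protein, also rose, with a log2 difference of 0.74, or 0.43 under the length and GC correction. Genes for ubiquitin hold near-identical coding units, so reads may have been divided among them. Uba1, the main ubiquitin-activating enzyme, fell, with a log2 difference of -0.35, and Uba6, which also activates ubiquitin, did not pass.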

How the data were processed

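Total RNA was isolated with Trizol and a column kit and made into Illumina libraries, per the labels' protocols. The deposited values were RPKM computed by the authors, made with CASAVA 1.4, TopHat, Cufflinks and build mm9 among the names per the submitters' processing notes, which assign them no step. No annotation or gene filter is given in the sources used here. After sorting, 95.3% of ranks held the same value in every library (tolerance 1e-09, relative), the pattern that quantile normalization leaves, although no label states that step. The siCtrl library summed to 255492 RPKM, and no counting interval could be given. The header did not separate the siMed23 columns, so these are called the first and the second by their place in the table.

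Genes averaging 1 RPKM or more over the libraries were analysed as log2(RPKM + 1), which understates changes of low genes, with limma 3.58.1 in R 4.3.3 (intensity trend, Benjamini-Hochberg adjustment over 9722 genes, threshold 0.05). The siMed23 libraries gave the only residual degree of freedom. To it limma added 4.37 prior degrees of freedom from the intensity trend over all genes tested. Each SE, interval and p-value therefore rests more on the siMed23 spread of other genes than on the gene's own. The step was tested on simulated data in which the control varied like the siMed23 libraries and far fewer genes changed than were called here. That simulation therefore says nothing on a control that varies more. Members, lists, role groups and motifs were chosen with earlier results of these data known. Named genes were the members, Med23 and the listed partner genes, with full statistics for the 3 largest and 3 smallest differences in each particle and for partners chosen after their values were seen. Length (longest transcript) and GC content came from GENCODE M21, which matched 98.1% of genes by ID. Alternatives were another pseudocount, other filters, scalings and variance models, a length and GC correction and each siMed23 library left out. Some listed genes are counted but not reported here by name. Plots were drawn with matplotlib 3.10.9.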

Additional observations from a re-analysis of the deposited data

How the results depend on the processing

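Counts of calls were stable across a pseudocount of 0.1, no filter, a 5 RPKM minimum, median-of-ratios scaling, repeated quantile normalization and, added after seeing the data, robust variance estimation, except that 1494 of all genes were lower at a minimum of 5 RPKM, where fewer genes were tested. They rested on the assumed spread of the lone control. With its SD at 2 times that of a siMed23 library, limma called 2 core genes higher and 0 lower, 0 regulatory genes higher and 3 lower, 9 partner genes higher and 4 lower, and 810 of all genes higher and 683 lower. At an unadjusted p under 0.05 these were 3 and 0 core genes and 2 and 4 regulatory genes, beside 1846 and 1608 of all genes. At 3 times, limma called 0 core and 0 regulatory genes, and 4 partner genes higher and 0 lower (2 partner genes without Psmb8 and Psmb9). Of all genes 118 were then higher and 77 lower. An unadjusted p under 0.05 was reached by 2 core genes higher, 3 regulatory genes lower, and 9 partner genes higher and 6 lower. Beside these stood 1031 of all genes higher and 912 lower. Without an intensity trend 0 core genes were lower (2 unadjusted) and 1 regulatory gene was higher. Of all genes 2219 were then lower (2644 unadjusted) and 2475 higher. The length and GC correction called 7 core genes lower, beside 2396 of 9614 genes in all, and moved the members' median to -0.13. The cause was not tested.

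No called member or partner gene changed sign under these alternatives. Genes that had not passed changed sign under the correction for Psmb1 (-0.0677), Psmd3 (-0.0829), Psmc1 (-0.12), Psmc6 (-0.00580), Psmd14 (-0.13), Psma1 (-0.24, then called lower), Psmd10 (-0.0203), Psmg2 (-0.10) and Ddi2 (0.0495), and under median-of-ratios scaling for Psmd3 (-0.0213), Psma1 (-0.0132) and AI314180 (-0.0191). With 1 siMed23 library left out, the sign changed for Psmc6 (-0.16), Psma1 (-0.0340), Psmd3 (-0.0175), Psmb3 (0.0318) and AI314180 (-0.0378), none of which had passed. At a limit of 2-fold 0 members changed in both libraries, and with a pseudocount of 0.1 there were 2 past 1.5-fold, Psma5 and Psmd1. Leaving out either siMed23 library leaves no test, and the members' median was then -0.0232 or 0.0516, with 1 member past 1.5-fold each time. No paired analysis was possible because the siCtrl group has 1 library. Unknown depth and 1 control library limit all values.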
